A study of Equus caballus with 6 samples.

Results

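The middle and deep zones of adult equine articular cartilage were compared on 2 arrays, 1 for each zone, out of 6 arrays in the series. Each array carried 43603 non-control probes of 60 bases, which were assigned to 13690 genes as far as they could be named. Each gene is represented by its probe with the highest mean scaled signal over the 6 arrays. A gene was measured on both arrays when this probe was flagged well above background by the scanner software on both; this held for 822 of the 13690 genes. A further 479 genes were measured on the middle zone array only and 838 on the deep zone array only, so that for these a bound on the difference is given in place of a value. For 83 genes the representing probe and the other probes differed in which arrays, if any, they were above background on. For 11468 genes no probe was above background on either array.

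Both samples were stifle cartilage from an adult of 15 years, and the labels name no strain, treatment or disease for either. The cartilage was 1500 to 2000 µm thick from the articular surface to the tidemark, the line where calcified cartilage begins. The middle zone sample was the 20 to 30% layer next to the superficial zone, and the deep zone sample lay between 50 and 90% of the depth. A superficial zone array, of the top 10%, belongs to the same adult set and is given beside some results for orientation. The other 3 arrays were fetal limb tissue at gestational day 40 (the intermediate and outer layers of the interzone, the cell layer where a joint will form, and the transient cartilage beside it). In all 6 samples cells were collected by laser capture from sections of 10 µm stained with cresyl violet, messenger RNA was converted to cDNA and amplified by PCR, and 250 ng of cDNA was labelled with Cy3. The number of animals, and whether the adult zones came from the same animal, are not given in the sources used here. Each group is 1 array: a difference between the 2 arrays has no replicate check, no p-value is given, and differences between zones, between captured samples and between amplifications cannot be told apart. The sections are tissue, so a lower signal from fewer cells of a type and from less RNA per cell cannot be told apart either.

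As background, articular cartilage holds a single resident cell type, the chondrocyte, in a matrix of type II collagen fibrils and aggrecan, a proteoglycan whose sulphated chains bind water and resist compression. The zones differ in how this matrix is laid out. In the middle zone, fibrils run obliquely between scattered rounded cells. In the deep zone, cells stand in columns and fibrils run perpendicular to the surface, in the part of the tissue that is known for the highest proteoglycan content. Signals below are the processed signals of the scanner software, in arbitrary units that serve to compare the same probe between arrays and not one gene with another.

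Few probes gave signal on either array. Well above background were 3660 probes on the middle zone array (8.39%) and 4729 on the deep zone array (10.8%), against 26.4% on the superficial zone array and 36.9 to 44.6% on the fetal arrays. The lowest signal flagged well above background was 7.87 on the middle and 7.65 on the deep zone array, the median among such probes was 35.4 and 73.3, and the highest was 83400 and 94700. No spot was saturated. Repeated spots of the same probe had a median SD of 0.15 (log2) on the middle and 0.13 on the deep zone array, over 8 and 6 probes. Before comparison each array was divided by its 75th percentile over the 1765 probes above background on all 6 arrays, which was 507 on the middle and 891 on the deep zone array, and 2560 on the superficial. Signals printed below are as read, before this scaling, and folds are after it. A probe with equal signals on the arrays therefore counts as 1.76-fold higher in the middle zone. Differences are middle minus deep on the log2 scale of these scaled signals, and the error printed after ± is the scanner software's own error of a spot, carried through to the difference. This error describes the spots alone and not the spread between samples.

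The label of cartilage was checked against 14 chondrocyte markers, of which 6 had a probe above background on the middle and 9 on the deep zone array. COMP, ACAN, SOX9, COL11A1 and CILP were measured on both arrays, HAPLN1, PRELP, FMOD and CYTL1 on the deep zone array only, and CHAD, with a signal of 12.1, on the middle zone array only. COL2A1, the gene of the main cartilage collagen, was not above background on either: its 6 probes reached at most 1.76 on the middle and 7.2 on the deep zone array, and at most 6.33 on the superficial zone array, against 1090 to 183000 on the fetal transient cartilage array. COL9A1, MATN3 and LECT1 were likewise at background on both arrays. More of the chondrocyte markers were thus detected on the deep than on the middle zone array. Over all 13690 genes, 1721 had a probe above background on the deep and 1357 on the middle zone array. COL2A1, the marker that defines the tissue, was detected on neither, which at such low detection does not show that it was absent.

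Markers of other cell types were sparse. Of 10 leukocyte markers on the array, 4 had a probe above background on the middle and 4 on the deep zone array. PTPRC, a leukocyte phosphatase, read 10800 on the middle and 25000 on the deep zone array by the probe that represents it. Its probes also reached 127000 on the fetal transient cartilage array. Of its 15 probes, 6 overlapping ones read 3610 to 10800 on the middle and 8030 to 25000 on the deep zone array. Probes from another stretch read 15.4 to 16.6 on the middle and 5.65 to 8.89 on the deep zone array. The remaining PTPRC probes were at background on both. CSF1R, the receptor of a macrophage growth factor, read 88.9 and 10.3, the chemokine CCL3 read 280 and 39.6, and CD68 read 24.0 on the middle zone array and was at background (1.53) on the deep. TYROBP, CD14, DRA, CD74 and AIF1 were at background on both. Summed over the leukocyte markers above background, the signal was 11193 on the middle and 25060.3 on the deep zone array, nearly all of it PTPRC. Of 5 endothelial markers only VWF was above background, at 41.6 and 34.6, and of 7 skeletal muscle markers ACTA1 (32.2 and 25.3) and CKM (17.0 and 10.6). For bone, BGLAP read 9.75 on the middle zone array and SOST 12.1 on the deep zone array, each at background on the other. HBB, a haemoglobin chain, read 8.01 on the deep zone array and was at background on the middle. MKX, a tendon transcription factor, read 82.5 and 136, and no marker of fat, smooth muscle or osteoclasts was above background on either array. The part of these cells in the differences below was not tested.

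Among the 822 genes measured on both arrays, 108 were at least 4-fold higher in the middle zone, which is 13.1% of them, and 64 were at least 4-fold lower, which is 7.79%. The other 650 lay within 4-fold. The median difference was 0.79, or 1.73-fold in favour of the middle zone, with quartiles of 0.02 and 1.44 and extremes of 8.27 and -8.76. That median depends on the scaling. The counts of higher and lower genes were 108 and 64 with the scaling used here. They were 125 and 61 with the 75th percentile over probes measured on both arrays, and 79 and 37 after quantile normalization. Setting the medians of probes measured on both arrays equal gave 55 and 80, and normexp background correction 44 and 47. The 75th percentile over all probes gave 49 and 89. It was 1.97 on the middle and 2.16 on the deep zone array, below any signal flagged well above background. The 50th percentile over all probes was 1.58 and 1.53, the small value given to spots at background. It gave 46 and 98, as did the authors' own values, which were divided by the same numbers. Thus whether more genes were higher or lower in the middle zone turned with the scaling, and the median of all genes ran from -0.07 to 0.93. The other scaling percentiles and the authors' values moved every gene by the same amount, between -0.86 and 0.14. A shift of that size cannot turn the sign of a 4-fold difference, so they do not test it. Quantile normalization and normexp could turn it, and under these none of the 172 genes past 4-fold changed sign. Of all 822 genes, 340 changed sign under at least 1 of the 7 other scalings and normalizations. Differences under 4-fold are therefore given below as values with no direction drawn from them. Past 4-fold under all 7 were 32 genes higher and 37 lower in the middle zone. Of the genes described below these include, as lower, COMP, ACAN, COL11A1, COL27A1, FN1, PCOLCE2, PROCR, ABI3BP, CDKN1A, GPX3 and CD63 and, as higher, THBS1, COL16A1, HAS2, SDC2 and PTGS2, each by the probe that represents it. PRG4, CILP, THBS2, NOS2, LCN2, SOD2, HSPA5, LOXL4, EIF2A and GJA1 kept their direction but came within 4-fold under at least 1 of the 7. Of the 172 genes past 4-fold, 86 have several probes on the array, and in 9 of these (7 reported as higher, 2 as lower) another probe differed by at least 4-fold, measured or as a bound, in the opposite direction.

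The smallest signals leave little room for a fall in the middle zone. With a floor of 7.87 there, and with the scaling, a gene 4-fold lower in the middle zone had to be bright on the deep zone array. When the 822 genes were divided at the median of their mean signal (27.6), the 411 dimmer genes held 32 genes at least 4-fold higher and 0 at least 4-fold lower in the middle zone, and the 411 brighter genes 76 and 64. Nothing is read from that split beyond the filter.

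**Figure D1:**
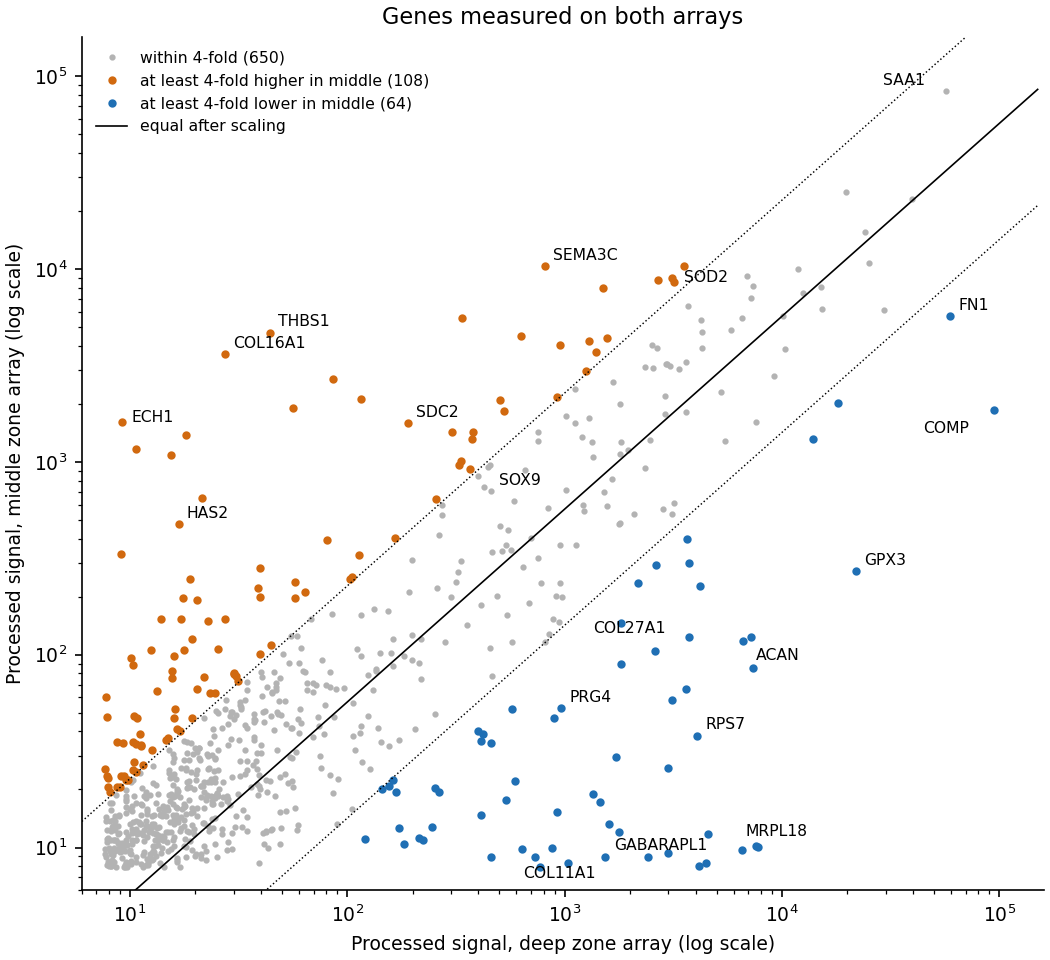
Processed signal of the 822 genes measured on both arrays, deep zone on the horizontal and middle zone on the vertical axis, both on log scales; the solid line marks equality after scaling and the dotted lines 4-fold. Orange points are the 108 genes at least 4-fold higher and blue points the 64 at least 4-fold lower in the middle zone, grey points the 650 within 4-fold. COMP, FN1 and GPX3 stand at the bright end of the blue points, THBS1 and COL16A1 far to the left among the orange ones.

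Of all 13690 genes, 3.5% were measured on the middle zone array only and 6.12% on the deep zone array only. For these, the signal on the array with expression was set against the lowest signal well above background on the other, or the gene's own signal there where that was higher, which gives the least fold that the arrays allow. By this bound 227 of the 479 genes of the middle zone array and 425 of the 838 of the deep zone array differed by at least 4-fold. Bounds shift with the scaling as differences do. The shifts between scalings, which are the same for every gene, are too small to turn the direction of a bound past 4-fold. Under quantile normalization, normexp and the authors' values the lowest signal of the other array stayed on the main scale. The alternatives therefore do not test the direction of the bounds. On the superficial zone array, 89.7% of the genes measured on both arrays were also above background, against 55.5% of those on the middle zone array only and 62.1% of those on the deep zone array only.

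COMP and ACAN were far stronger in the deep zone and CD44 far stronger in the middle zone. COMP is a pentameric matrix protein that binds collagen fibrils, ACAN encodes the aggrecan core protein, and CD44 is the cell-surface receptor for hyaluronan, the long sugar polymer to which aggrecan is tethered. Their probe sequences are shown to give the stretch of the transcript that each probe reads. COMP has 2 probes and CD44 has 1. ACAN has 3 probes, and of these a pair that do not overlap are shown, a bright one and a dim one. All letters are lower case as no part of these is singled out.
COMP, brighter probe: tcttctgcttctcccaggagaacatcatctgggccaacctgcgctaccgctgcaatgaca
COMP, other probe: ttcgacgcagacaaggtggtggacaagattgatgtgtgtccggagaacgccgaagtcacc
ACAN, brighter probe: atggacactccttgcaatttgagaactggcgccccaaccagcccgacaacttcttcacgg
ACAN, dim probe: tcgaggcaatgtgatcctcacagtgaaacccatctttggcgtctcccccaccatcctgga
CD44: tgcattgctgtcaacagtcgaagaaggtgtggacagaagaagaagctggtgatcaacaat

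COMP gave a signal of 1860 on the middle and 94700 on the deep zone array, the brightest of all probes on the latter, with 16700 on the superficial zone array. It was 29.0-fold lower in the middle zone (difference -4.86 ± 0.20). Its other probe gave 2220 and 88900, a difference of -4.51, so both probes placed the deep zone far above the middle. The ACAN probe measured on both arrays read 118 on the middle and 6640 on the deep zone array, a 32.0-fold lower signal in the middle zone with a spot error of 0.20 on the log2 scale, with 5290 in the superficial zone. The brighter ACAN probe shown above read 7.8, not above background, on the middle and 10100 on the deep zone array. The dim ACAN probe read 3.21 and 5.61 and was at background on both arrays; it was also dim, at 15.6, on the superficial zone array, where the other ACAN probes read 5290 and 6240. CD44 went the other way, with 9070 on the middle zone array and 1.53, which is background, on the deep; this puts the middle zone at least 2084-fold above the deep, and 4000 was read in the superficial zone. CD44 rests on a single probe.

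Of the 7 genes of cartilage collagens, COL11A1 and COL27A1 were measured on both arrays and both were lower in the middle zone. COL11A1, a chain of the type XI collagen that seeds thin fibrils, read 8.89 on the middle and 733 on the deep zone array and was 46.9-fold lower in the middle zone (-5.55 ± 0.33). COL27A1, a fibrillar collagen of cartilage, read 124 and 3730 and was 17.1-fold lower (-4.10 ± 0.20). A second COL27A1 probe was at background on both arrays (1.58 and 2.12) and read 8.83 in the superficial zone. The COL11A1 value on the middle zone array lay just above the lowest signal that passes as above background. Of the 5 COL11A1 probes, 1 was above background on the middle and 2 on the deep zone array. COL2A1, COL9A1, COL9A2, COL9A3 and COL11A2 were at background on both arrays.

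Proteoglycan core and link proteins differed in both directions, with 5 genes past 4-fold, measured or as a bound, towards the deep zone and 3 towards the middle zone. Of 16 on the array, 3 were measured on both arrays (1 at least 4-fold higher and 2 at least 4-fold lower in the middle zone, median -3.38 beside 0.79 for all genes), 2 on the middle and 5 on the deep zone array only. The genes on 1 array only were 12.5% and 31.25% of the list, beside 3.5% and 6.12% of all genes. Besides ACAN, the lower gene was PRG4, the lubricin of joint surfaces, with 52.6 on the middle, 963 on the deep and 83100 on the superficial zone array, a 10.4-fold lower signal in the middle than in the deep zone. All 5 PRG4 probes gave differences between -3.44 and -3.14. HAPLN1, the link protein that locks aggrecan to hyaluronan, was at background (1.58) on the middle and read 164 on the deep zone array, at least 11.9-fold lower in the middle zone. The membrane proteoglycans split. SDC4 (syndecan 4) was at background on the middle and read 1450 on the deep zone array, at least 104.8-fold lower in the middle zone, and SDC3 (syndecan 3) was at least 45.9-fold lower, with 4.48 and 635. SDC2 (syndecan 2) read 1590 and 190 and was 14.7-fold higher in the middle zone (3.88 ± 0.20), but its other probe was at background (1.58) on the middle and read 681 on the deep zone array, at least 49.2-fold lower, so the SDC2 probes opposed each other. SRGN, a proteoglycan of secretory granules, read 2950 on the middle zone array and was at background on the deep, at least 677.7-fold higher in the middle zone.

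Small leucine-rich proteoglycans bind collagen fibrils and set their width. Of 12 on the array, 8.33% were measured on the middle zone array only and 33.3% on the deep zone array only, beside 3.5% and 6.12% of all genes, and 3 of the latter had a bound past 4-fold. Of these 12, BGN (biglycan) was the only gene measured on both arrays, CHAD was on the middle zone array only and DCN, FMOD, PRELP and OGN were on the deep zone array only. The probe that represents BGN read 38.6 and 78 (-0.20 ± 0.21), while 2 overlapping probes from another stretch differed by -2.32 and -2.17. FMOD (fibromodulin) read 5.59, at background, and 418, at least 30.2-fold lower in the middle zone. OGN (mimecan) read 5.66 and 380, at least 27.5-fold lower, and PRELP 1.58 and 91.0, at least 6.58-fold lower. DCN (decorin) read 4.03 and 44.4, a bound of only 3.21-fold, and the CHAD bound was 2.78-fold. No probe of LUM, ASPN, EPYC, KERA, PODN or ECM2 was above background in either zone.

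The non-collagenous matrix proteins held large differences in both directions. Of 24 on the array, 7 were measured on both arrays, 2 of them at least 4-fold higher and 4 at least 4-fold lower in the middle zone, with a median of -2.57. A further 1 was on the middle and 3 were on the deep zone array only. These were 4.17% and 12.5% of the list, beside 3.5% and 6.12% of all genes. Lower beside COMP were FN1 (fibronectin, an adhesion protein), PCOLCE2 (an enhancer of procollagen cleavage) and CILP (cartilage intermediate layer protein). FN1 read 5700 on the middle, 59400 on the deep and 58600 on the superficial zone array and was 5.93-fold lower in the middle than in the deep zone. PCOLCE2 read 1320 and 13900 and was 5.99-fold lower. CILP read 12.6 and 173 and was 7.81-fold lower. CYTL1, a small secreted protein of chondrocytes, was at background with all 5 probes on the middle zone array and read 6400 on the deep, at least 462.7-fold lower in the middle zone. VIT (vitrin) showed the same all-or-none pattern, with 1.58 on the middle and 9270 on the deep zone array, at least 670.2-fold lower.

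Of the thrombospondins other than COMP, THBS1 and THBS2 were measured and both were higher in the middle zone, while THBS3 and THBS4 were at background on both arrays. THBS1, which binds cells and activates latent TGF-beta, read 4680 on the middle and 44.0 on the deep zone array and was 187-fold higher in the middle zone (7.55 ± 0.21), with 20800 in the superficial zone. THBS2 read 1010 and 332 and was 5.35-fold higher (2.42 ± 0.20), and its 4 probes lay between 2.40 and 2.70. TNC (tenascin C), a matrix protein of tissue under repair or load, read 457 on the middle zone array and was at background on the deep, at least 105-fold higher in the middle zone. So COMP on one side and THBS1 and THBS2 on the other, which belong to 1 family, differed in opposite directions between these arrays.

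Among 17 other collagens, COL16A1 and COL18A1 were measured on both arrays. COL16A1, a fibril-associated collagen, read 3610 on the middle zone array against 27.3 on the deep and 30.8 on the superficial and was 232-fold higher in the middle than in the deep zone (7.86 ± 0.22). It rests on 1 probe. COL6A3, a chain of the collagen around each chondrocyte, was at background on the middle and read 338 on the deep zone array, at least 24.4-fold lower in the middle zone. Its other probe was at background on both arrays (1.58 and 1.53), though it read 5370 in the superficial zone, where the first read 3850. COL6A2, another chain of the same collagen, read 13 on the middle zone array and 3.19, at background, on the deep, a bound of 2.99-fold. The fibrillar collagens COL1A1, COL1A2, COL3A1, COL5A1 and COL5A2 were at background in both zones.

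**Figure D2:**
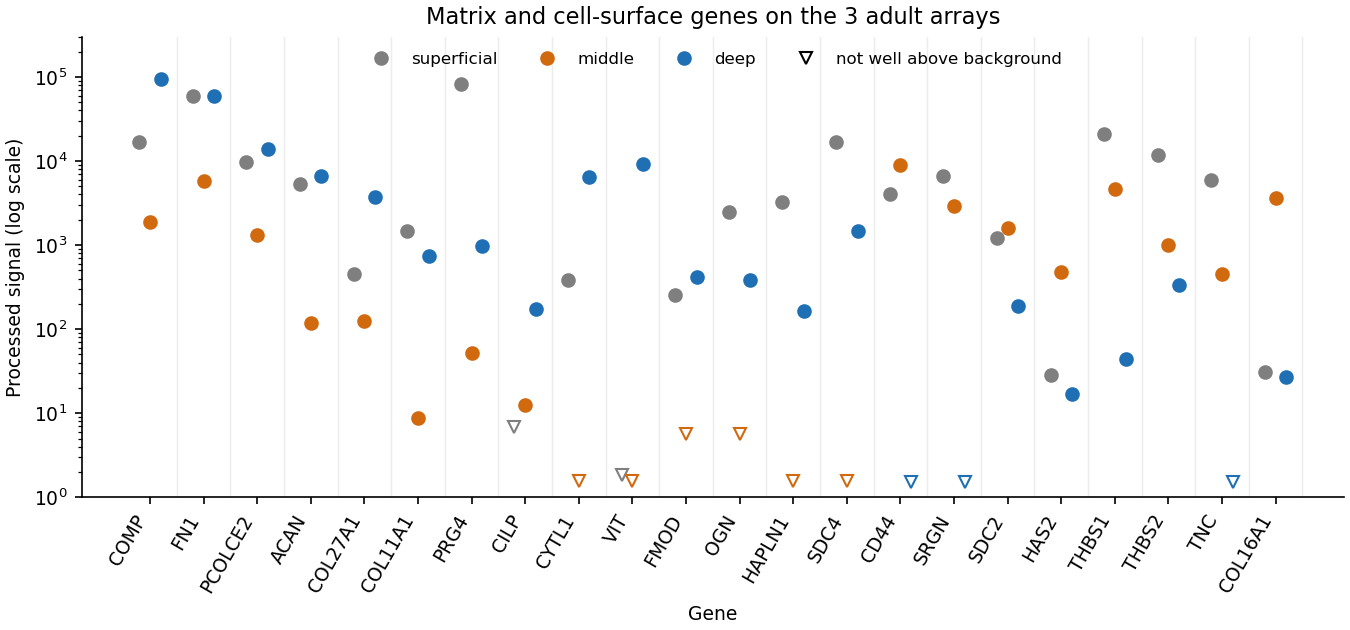
Processed signal, on a log scale, of 22 matrix and cell-surface genes, each by the probe that represents it, on the superficial (grey), middle (orange) and deep (blue) zone arrays, 1 array each; open triangles are signals not well above background. From COMP to SDC4 the middle zone lies below the deep zone, and from CD44 to COL16A1 above it.

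Genes of hyaluronan also differed. HAS2, the main synthase of hyaluronan in chondrocytes, read 475 on the middle and 16.7 on the deep zone array, with 28.5 in the superficial zone, and was 49.9-fold higher in the middle than in the deep zone (5.64 ± 0.11). Of 14 hyaluronan genes on the array, HAS2 and the receptor CD44 were above background on the middle zone array, and 4 were on the deep. On the deep zone array only were HAPLN1, past 4-fold as given above, and VCAN (versican) and LYVE1 (a hyaluronan receptor), each with 22 and a bound of 1.59-fold. They were 21.4% of the list, beside 6.12% of all genes. Neither HYAL1, HYAL2 and HYAL3, which cut hyaluronan, nor TNFAIP6 and CEMIP were above background in either zone. Of 20 genes that build and sulphate glycosaminoglycan chains, PAPSS1, which makes the sulphate donor, read 769 on the middle zone array and was at background on the deep, at least 176.7-fold higher in the middle zone. CHST12, a sulphotransferase, read 34.4 on the deep zone array only, a bound of 2.49-fold, and the other 18 were at background.

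Of 27 matrix proteinases on the array, 6 had a probe above background on the middle and 4 on the deep zone array: 2 were measured on both, 3 on the middle and 1 on the deep zone array only, and the probes of 1 disagreed. The genes on 1 array only were 11.1% and 3.7% of the list, beside 3.5% and 6.12% of all genes. The lysosomal cathepsins CTSB (12.5 and 19.6, 0.16 ± 0.30) and CTSL (9.31 and 21.1, -0.37 ± 0.34) were faint in both zones. The 3 on the middle zone array only were metalloproteinases. MMP3 (stromelysin 1) read 1840 on the middle zone array, 7610 on the superficial, and was at background on the deep, at least 422.7-fold higher in the middle zone. MMP14, a membrane-bound collagenase, read 751 on the middle zone array and was at least 172.5-fold higher. MMP1 (interstitial collagenase) read 856 on the middle and 844 on the superficial zone array and was at background on the deep, at least 196.6-fold higher. Only the 5 overlapping MMP1 probes gave this signal, between 856 and 932; the 3 probes elsewhere in the transcript were at background on both arrays, and they read 288 to 7200 in the superficial zone. ADAM9, a membrane proteinase, read 7.72, at background, on the middle and 290 on the deep zone array, at least 21.0-fold lower in the middle zone. ADAMTS5, the main aggrecanase, gave 317 on the middle zone array and background on the deep with its brightest probe, while another probe read 22.4 and 48.1, so its probes disagreed. The other 20, MMP2, MMP9, MMP13 and ADAMTS4 among them, were at background on both arrays.

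TIMP2, an inhibitor of these enzymes, was at background (1.58) with all 7 probes on the middle zone array and read 9680 on the deep, at least 699.9-fold lower in the middle zone. Its probes were uneven on the deep zone array: 5 overlapping probes gave 7480 to 9680, another gave 124 and another was at background, although all 7 were above background in the superficial zone. TIMP3, the inhibitor bound to matrix, read 4730 and 4280 (0.96 ± 0.20). TFPI2, an inhibitor of serine proteinases, read 424 on the middle zone array only, at least 97.4-fold higher there.

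Genes of inflammation and of catabolic signalling differed in both directions. Of 43 on the array, 10 were measured on both arrays, with 2 at least 4-fold higher, 2 at least 4-fold lower and a median of 1.22 beside 0.79 for all genes. A further 5 were on the middle and 2 on the deep zone array only. These were 11.6% and 4.65% of the list, beside 3.5% and 6.12% of all genes. CSF3, which encodes the granulocyte growth factor G-CSF, read 9360 on the middle zone array, 168 on the superficial and 3.17, at background, on the deep, at least 2150-fold higher in the middle than in the deep zone. This was the highest bound on the middle zone array, from a single probe. PTGS2, the inducible cyclooxygenase, read 191 and 20.3 and was 16.5-fold higher (4.05 ± 0.23), while its other measured probe differed by -0.46. SOD2, the mitochondrial superoxide dismutase, read 9000 and 3100 and was 5.10-fold higher (2.35 ± 0.20), but its 17 probes ran from -3.40 to 3.33. Of these, 11 were at least 4-fold higher in the middle zone and 1 was 10.6-fold lower. The other 5, which overlap one another, lay between -1.41 and -1.26.

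By the probes that represent them, NOS2 and LCN2 were lower in the middle zone. NOS2, the inducible nitric oxide synthase, read 397 on the middle, 3640 on the deep and 3550 on the superficial zone array, 5.22-fold lower in the middle than in the deep zone by this probe. The 7 NOS2 probes measured on both arrays lay between -2.38 and 0.19, and 5 overlapping probes from another stretch went the opposite way, with 1770 to 2010 on the middle zone array and background (1.53) on the deep, at least 406.6-fold higher in the middle zone. The NOS2 probes therefore gave no common direction. LCN2, an iron-scavenging lipocalin, read 17.6 and 537 and was 17.4-fold lower (-4.12 ± 0.24). NFKBIA, the inhibitor that NF-kappaB induces to restrain itself, was at background on the middle and read 2630 on the deep zone array, at least 190.2-fold lower in the middle zone. IRAK3, a brake on Toll-like receptor signalling, went the opposite way, with 1720 on the middle zone array and background on the deep and superficial, at least 395-fold higher. The complement proteases C1R and C1S read 313 and 815 on the middle zone array and were at background on the deep, at least 71.9-fold and 187-fold higher. IL6 was faint, with 29.2 on the middle zone array, at least 6.71-fold higher there.

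Some of the brightest genes of this group lay within 4-fold. SAA1, an acute-phase protein, read 83400 on the middle and 56700 on the deep zone array (1.37 ± 0.20), the brightest named signal on the middle zone array, with 161000 in the superficial zone. All 8 SAA1 probes were above background in both zones. CFB (complement factor B) read 3060 and 2550 (1.08 ± 0.20). IL1A, IL1B, TNF, CXCL8 and CCL2 were at background on both arrays.

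Immediate-early and stress-response genes were detected more often on the deep zone array, where 17 of 36 had a probe above background, than on the middle, where 6 had. Of the 36, 6 were measured on both (0 at least 4-fold higher and 1 at least 4-fold lower, median 0.03), 0 on the middle and 10 on the deep zone array only, or 27.8% of the list beside 6.12% of all genes. CDKN1A, the cell-cycle inhibitor p21, read 8.29 on the middle, 1040 on the deep and 10.2 on the superficial zone array and was 71.4-fold lower in the middle than in the deep zone (-6.16 ± 0.34). FOSL2, a subunit of the transcription factor AP-1, was at background on the middle and read 3720 on the deep zone array, at least 269-fold lower in the middle zone. The other AP-1 genes FOS and JUN read 200 and 333 on the deep zone array and were at least 14.5-fold and 24.1-fold lower. GADD45A, a DNA damage response gene, was at least 59.5-fold lower, the TGF-beta-induced repressor KLF10 at least 39.3-fold and the antiproliferative BTG1 at least 32.0-fold. JUNB (598 and 1220, -0.22 ± 0.20) and CCN2, a growth factor of the matrix (2770 and 9140, -0.91 ± 0.20), lay within 4-fold by these probes. Another JUNB probe was at background (5.86) on the middle and read 2440 on the deep zone array, at least 176.4-fold lower in the middle zone.

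Of 20 chondrocyte transcription factors on the array, SOX9, NFATC1 and HIF1A were measured, each within 4-fold by the probe that represents it. SOX9, the master regulator of chondrocytes, read 708 on the middle, 457 on the deep and 729 on the superficial zone array (1.44 ± 0.20). NFATC1 read 348 and 564 (0.12 ± 0.20) and HIF1A, the oxygen-sensing factor, 306 and 332 (0.70 ± 0.20). Some other probes of SOX9 and HIF1A read differently. A second SOX9 probe was at background (2.83) on the middle and read 75.2 on the deep zone array, at least 5.44-fold lower. A second HIF1A probe read 1.58, at background, and 420, at least 30.4-fold lower, and the remaining measured one differed by -1.12. The other 17 transcription factors were at background. Of 16 genes of hypertrophy and mineralisation, the programme by which growth cartilage turns to bone, 0 were above background on the deep zone array. Of all 13690 genes, 1721 had a probe above background there, so nothing is read from the 0. On the middle zone array SPP1 (osteopontin) read 345, at least 79.3-fold higher than on the deep, PTHLH (parathyroid hormone-related protein, which holds back hypertrophy) read 516, at least 119-fold higher, and BGLAP (osteocalcin) 9.75, a bound of 2.24-fold. These 3 were 18.75% of the list, beside 3.5% of all genes on the middle zone array only. COL10A1, ALPL, IBSP and MMP13 were at background in both zones.

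Of 18 genes known from the superficial zone, 5 were measured on both arrays, 0 at least 4-fold higher and 3 at least 4-fold lower in the middle zone, with a median of -2.83. TNC, at least 105-fold higher, was on the middle zone array only, and DCN, with a bound of 3.21-fold, on the deep zone array only. Lower in the middle than in the deep zone were PRG4, PROCR and ABI3BP. PROCR, the protein C receptor, read 17.2 on the middle and 1460 on the deep zone array, with 7680 in the superficial zone, and was 48.3-fold lower in the middle zone (-5.59 ± 0.24). ABI3BP, a matrix-binding protein, read 298 and 3720, with 9320 in the superficial zone, and was 7.10-fold lower (-2.83 ± 0.20). CLU (clusterin, an extracellular chaperone) read 6110 and 29600 (-1.46 ± 0.20) and ANGPTL7, an angiopoietin-like protein, 3100 and 2330 (1.23 ± 0.20). The superficial signals of all 5 measured genes were above background.

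Signalling genes of the TGF-beta and BMP families were few. Of 37 on the array, SMAD7 alone was measured on both arrays (36.5 and 29.2, 1.14 ± 0.23). TGFB2, a ligand, read 1980 on the middle zone array and was at background on the deep, at least 455-fold higher in the middle zone. INHBA, the activin A subunit, read 1120 on the middle zone array and was at least 257-fold higher. TGFBR1, a receptor of TGF-beta, read 24.2 on the middle zone array only, at least 5.56-fold higher, and the partner receptor TGFBR2 read 38.3 on the deep zone array only, a bound of 2.77-fold. Among growth factors and their binding proteins, IGFBP7 read 5.88, at background, and 1870, at least 135-fold lower in the middle zone, and GAS6, a ligand of TAM receptors, was at least 5.79-fold lower. Of 26 WNT genes, 1 was measured on both arrays (AXIN1, 0.84 ± 0.36), 0 on the middle and 3 on the deep zone array only, SFRP4 and LEF1 with bounds of 1.99-fold and 2.82-fold and LRP5 with none. Those 3 were 11.5% of the list, beside 6.12% of all genes.

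**Figure D3:**
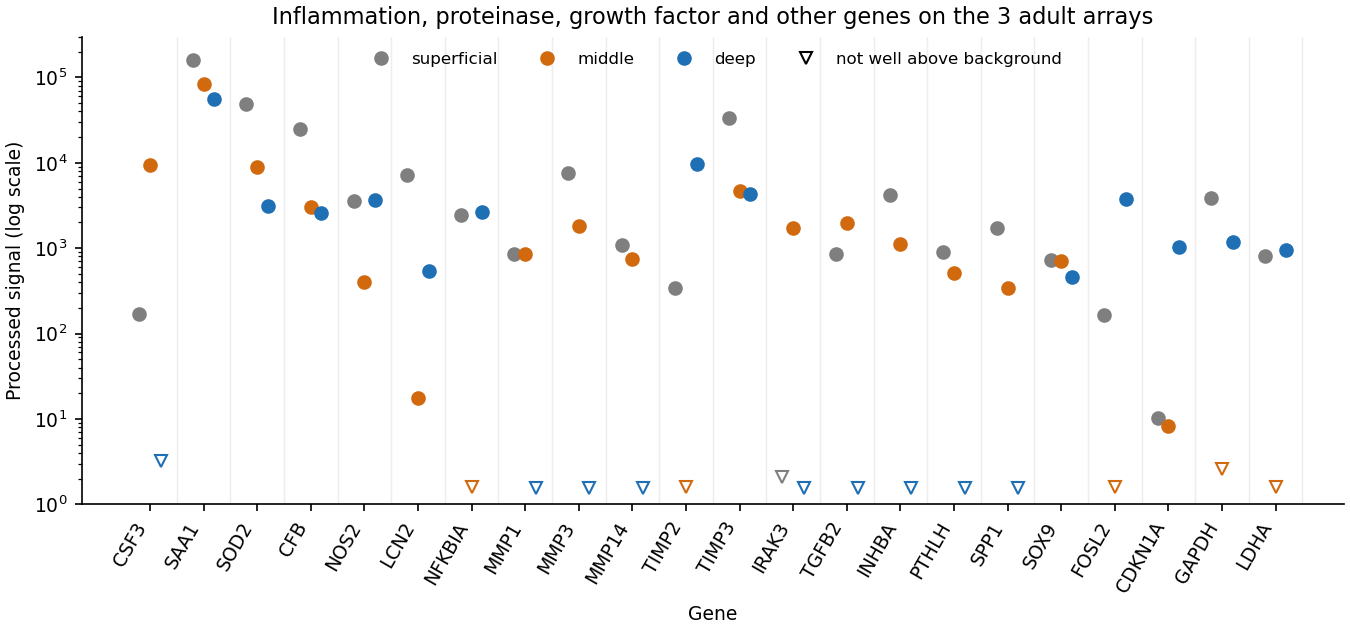
Processed signal, on a log scale, of 22 genes of inflammation, proteolysis, growth factor signalling and metabolism, each by the probe that represents it, on the superficial (grey), middle (orange) and deep (blue) zone arrays, 1 array each; open triangles are signals not well above background. CSF3, the MMP genes, IRAK3, TGFB2, INHBA, PTHLH and SPP1 are triangles on the deep zone array, while NFKBIA, TIMP2, FOSL2, GAPDH and LDHA are triangles on the middle zone array.

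Genes that most cells express were used to see how evenly the arrays were populated. Of 46 such genes, 13 were measured on both arrays (1 at least 4-fold higher, 1 at least 4-fold lower, median 0.55), 1 on the middle zone array only and 8 on the deep zone array only, and 22 were at background on both. The genes on 1 array only were 2.17% and 17.4% of the list, beside 3.5% and 6.12% of all genes. VIM (vimentin) read 7040 and 7210 (0.78 ± 0.20), EEF1A1, an elongation factor, 9940 and 11900 (0.55 ± 0.20), and TPT1, a translationally controlled protein, 15600 and 24000 (0.19 ± 0.20). B2M and PPIA were at background on both arrays. The genes at background on these arrays thus included ones that most cells express.

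Of 31 genes of glycolysis and the hypoxia response, 4 were measured on both arrays (0 past 4-fold, median 0.78 beside 0.79 for all genes). Measured on 1 array only were 1 gene in the middle (3.23% of the list, beside 3.5% of all genes) and 5 in the deep zone (16.1%, beside 6.12%), all 6 with a bound past 4-fold. GAPDH, a glycolytic enzyme, read 2.59, at background, on the middle and 1170 on the deep zone array, at least 84.6-fold lower in the middle zone. LDHA (lactate dehydrogenase) was at background and read 956, at least 69.1-fold lower, PGK1 at least 35.1-fold, PFKP at least 16.2-fold and the glucose transporter SLC2A1 at least 8.17-fold. PDK1, which turns pyruvate away from the mitochondria, read 1360 on the middle zone array and was at background on the deep, at least 312-fold higher in the middle zone. ALDOA, another glycolytic enzyme, read 476 and 1770 (-1.08 ± 0.20).

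GAPDH also showed how much a value depends on the probe. Its 13 probes fall into 3 groups of overlapping sequence; 7 overlapping probes read 115 to 1290 on the deep zone array, and the other 6 were at background there, while all 13 read between 2030 and 4100 in the superficial zone. The sequences of 4 of them are shown. Capitals in probes A and B mark the 56 bases that both hold. Capitals in probe C mark the 59 bases that it shares with probe A, and probe D, in lower case, comes from another stretch of the transcript.
GAPDH, probe A: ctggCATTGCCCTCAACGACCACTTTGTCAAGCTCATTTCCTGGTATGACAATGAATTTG
GAPDH, probe B: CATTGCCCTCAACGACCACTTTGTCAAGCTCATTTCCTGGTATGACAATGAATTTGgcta
GAPDH, probe C: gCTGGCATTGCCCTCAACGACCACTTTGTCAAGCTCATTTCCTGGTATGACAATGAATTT
GAPDH, probe D: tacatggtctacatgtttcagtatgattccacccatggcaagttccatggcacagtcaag
Probe A read 1170 on the deep zone array, probe B 927 and probe C 115, although A and C are offset by a single base and read 3900 and 4040 in the superficial zone. Probe D read 1.53 on the deep and 2030 on the superficial zone array.

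The same question was asked of all genes with probes in several parts of the transcript. Probes sharing a run of 20 bases or more were taken as 1 group, and 2450 genes had more than 1 group. Of these, 44 were measured on both arrays by more than 1 group; the groups gave the same direction in 35 and opposite directions in 9, with a median SD between groups of 0.83 (log2) and a pooled SD of 1.48. In 14 of the 44 the groups lay at least 4-fold apart. Of 303 such genes above background on the middle zone array, 237 (78.2%) were so by only part of their groups, and of 402 on the deep zone array, 263 (65.4%). A single probe at background was therefore common within genes that another probe detected on the same array, and bounds that rest on 1 probe, such as those of CD44, CSF3, MMP3, NFKBIA and LDHA, have no second probe to set beside them. In FN1 the probes agreed on the direction: 8 overlapping probes read 4020 to 6170 on the middle and 46300 to 59400 on the deep zone array and the probe elsewhere read 391 and 15700.

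**Figure D4:**
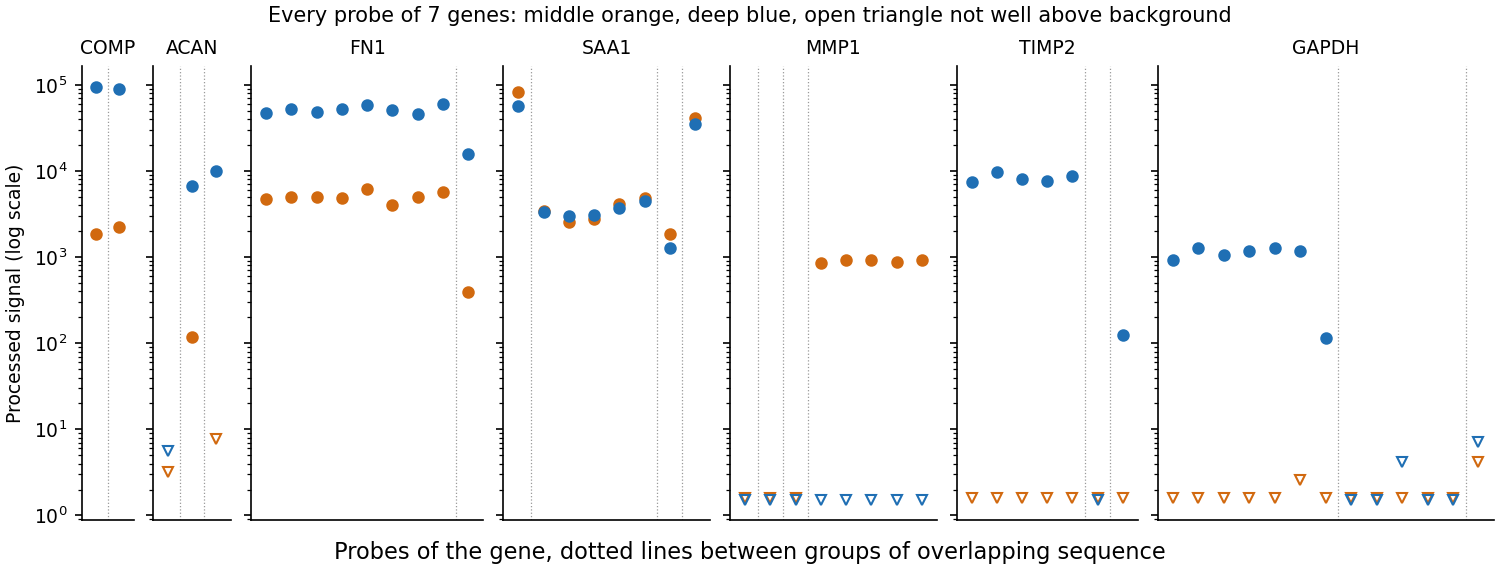
Processed signal, on a log scale, of every probe of 7 genes on the middle (orange) and deep (blue) zone arrays; dotted lines separate groups of probes that overlap in sequence, and open triangles are signals not well above background. All probes of COMP and FN1 place the deep zone above the middle, while MMP1, TIMP2 and GAPDH are detected by some groups of probes and not by others.

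Cytosolic ribosomal proteins were the best-measured list, with 28 of 44 genes above background on both arrays. Of these, 6 were at least 4-fold higher and 5 at least 4-fold lower in the middle zone, with a median of -0.01. A further 2 were on the middle and 4 on the deep zone array only. Those were 4.55% and 9.09% of the list, beside 3.5% and 6.12% of all genes. RPS12 read 7970 and 1500 and was 9.34-fold higher in the middle zone (3.22 ± 0.20). RPS7 read 38.1 and 4080 and was 60.9-fold lower (-5.93 ± 0.21), RPLP1 was 40.6-fold lower and RPL24 33.5-fold lower. RPL3 read 3700 on the middle zone array and was at background on the deep, at least 850-fold higher in the middle zone, and its 5 overlapping probes read 3020 to 3890 against 1.53, whereas RPS16 was at least 31.6-fold lower. Genes of this list thus differed widely in both directions, and the cause was not tested. The translation factors were as uneven: EIF2A (1430 and 378) was 6.65-fold higher, while EIF3E (66.7 and 3600) and EIF4B (58.5 and 3110) were 30.7-fold and 30.3-fold lower in the middle zone.

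Secretion, stress and membrane genes added a few bright differences. HSPA5, the chaperone BiP of the endoplasmic reticulum, read 8560 on the middle and 3190 on the deep zone array and was 4.72-fold higher in the middle zone, 56200 being read in the superficial zone. Its other probe read 5850 and 424 and was 24.2-fold higher. LOXL4, which cross-links collagen, read 98.6 and 16 and was 10.8-fold higher. GJA1, the gap junction protein connexin 43, read 1320 and 375 and was 6.19-fold higher (2.63 ± 0.20) by a group of 5 overlapping probes. The other 8 GJA1 probes, from 3 other stretches, opposed this: they were at background on the middle zone array (1.58 to 3.09) and read 198 to 302 on the deep, at least 14.3-fold lower in the middle zone. PPIB and PLOD2, which act on newly made collagen, were on the deep zone array only, with 1990 and 897, at least 143.9-fold and 64.9-fold lower in the middle zone. GPX3, the extracellular glutathione peroxidase, read 270 and 21900 and was 46.2-fold lower (-5.53 ± 0.20), but only by this probe: its other 5, which overlap one another, ran from -0.57 to 0.38. CD63, a tetraspanin of endosomes, read 8.89 and 457 and was 29.3-fold lower, and GABARAPL1, an autophagy protein, 8.96 and 1540 and was 97.8-fold lower. ITGA10, the collagen-binding integrin chain of chondrocytes, read 619 on the deep zone array only, at least 44.8-fold lower.

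**Figure D5:**
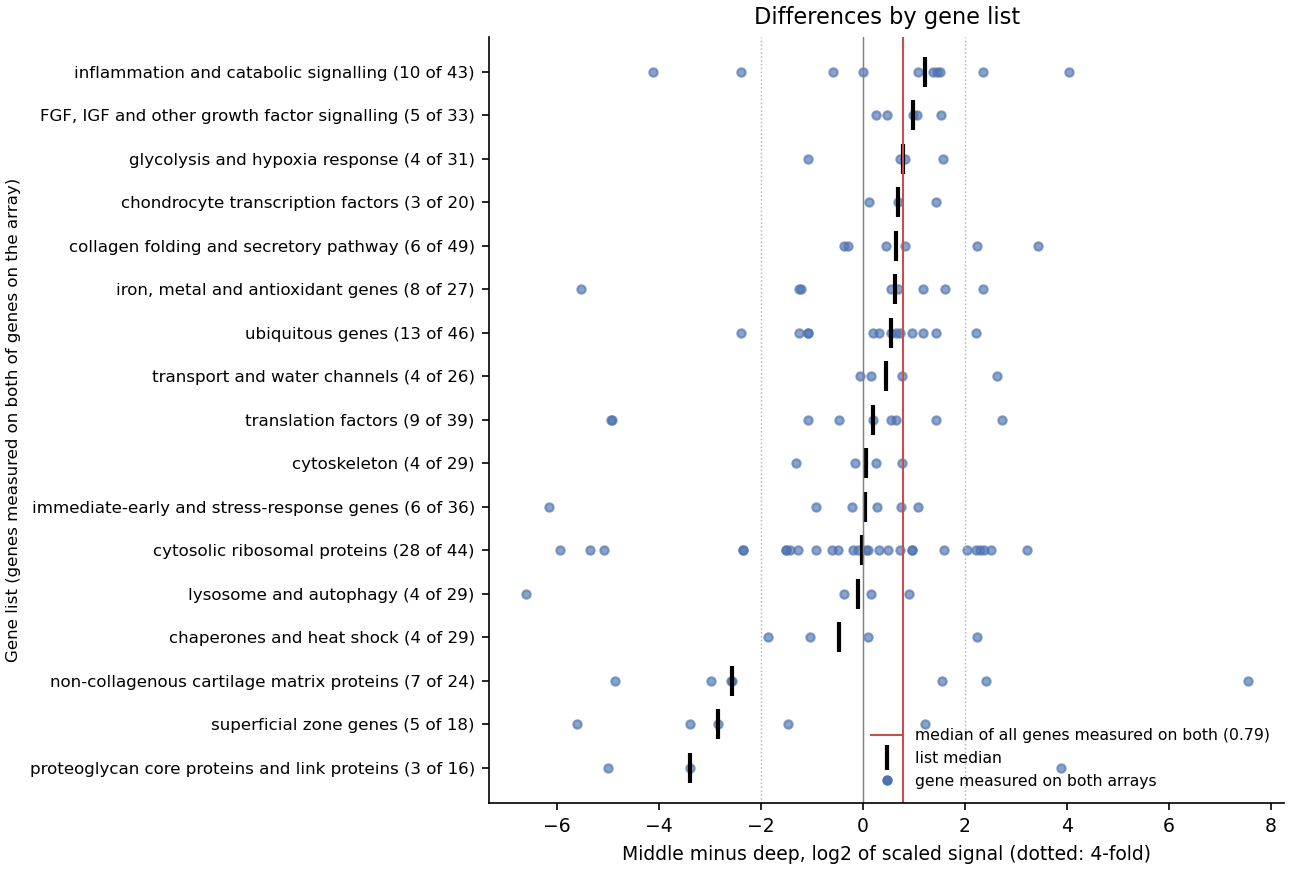
Differences between middle and deep zone (log2 of scaled signal) for the genes of 17 lists with 3 or more genes measured on both arrays; blue points are genes, black bars list medians, the red line the median of all 822 genes (0.79) and the dotted lines 4-fold. The medians of the proteoglycan, superficial zone and non-collagenous matrix lists lie below -2, and those of the other lists between -0.46 and 1.22.

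The genes with the widest differences, in the lists or outside them, had varied roles. Among those furthest to the middle zone, with all probes measured on both arrays in the same direction, were ECH1, an enzyme of fatty acid oxidation (1600 and 9.14, 308-fold), COL16A1, ZFP91 (192-fold), THBS1, EMD, the nuclear membrane protein emerin (64.7-fold), VPS13A (59.8-fold), PPP2R5A (54.8-fold, though a probe from another stretch was at background on the middle zone array and at least 33.8-fold lower there) and AHSA1, a partner of HSP90 (53.0-fold). Furthest to the deep zone were MRPL18, a mitochondrial ribosomal protein (10.1 and 7710, 434-fold), TMBIM1 (423-fold), RSRC2 (385-fold), UBR7 (307-fold), C1QTNF5 (154-fold), GABARAPL1, LIMS1, an adapter of integrin signalling (83.9-fold), CDKN1A, ETFDH (68.5-fold) and RPS7. The smaller signals of these pairs, from 8.28 to 86.2, mostly lay near the background, so that the fold depends on how background was treated; after normexp correction ECH1 differed by 5.33 in place of 8.27 and MRPL18 by -6.15 in place of -8.76.

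Among genes on the middle zone array only, the largest bounds belonged to CSF3 and CD44, followed by PTCD3 (at least 1845-fold), AVEN, an inhibitor of apoptosis (at least 1456-fold), GPS1, a COP9 signalosome subunit (at least 1433-fold), PPP2R5D (at least 1351-fold), NDNF (at least 1192-fold) and ERRFI1, which inhibits the EGF receptor (at least 1031-fold). Of these, NDNF (6240) and ERRFI1 (7300) were also bright in the superficial zone, and the others read 70.2 to 4000 there. On the deep zone array only, they belonged to TIMP2 and VIT, followed by STRAP (at least 628-fold), PDAP1 (at least 538-fold), CYTL1, PPP1R7 (at least 439.6-fold), the splicing factor SRSF7 (at least 429-fold) and the kinase MAPKAPK5 (at least 423-fold). VIT and MAPKAPK5 were at background in the superficial zone, and the other 6 were not.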

How the data were processed

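The files were single-colour Agilent scanner tables, 1 array per group and 6 in all. Per the file headers, signal was extracted with Feature Extraction 10.7.3.1; the deposited processed signal is a linear intensity, background-subtracted and in arbitrary units. The authors' deposited value table held a linear ratio per spot, each array's intensity divided by a constant of its own (lowest correlation with the log2 scanner signal 0.999959), and served as an alternative. Every column of that table had a median of 1, and the transformation behind it is unstated. Spots at background carry a small surrogate signal, which is a floor and not a level; the authors' constant was 1.58 on the middle and 1.53 on the deep zone array, the value of that surrogate.

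Control spots and outlier spots were left out (45220 spots, 1417 controls; 7 outliers on the middle, 3 on the deep zone array) and spots of a probe averaged. Signals were divided by each array's 75th percentile over probes above background on all 6 arrays. Names came from the files' own columns matched to a RefSeq gene table, with 370 probes named through aliases assigned by hand; 24037 of 43603 probes were named. A gene was represented by its probe with the highest mean scaled signal over the 6 arrays. The 4-fold threshold gives counts, not tests. Named were the 10 largest differences per direction whose measured probes agreed, the 8 largest bounds per direction, list members above background on either array, and ACAN, COMP and CD44. A few genes that this rule names are not reported here. These members, the 42 gene lists and the rule were chosen with earlier results of these data known. Code was tested on simulated data. The 3 adult arrays shared slide 2 and scan 2. R 4.3.3, limma 3.58.1, Python 3.11.15, pandas 2.3.3 and numpy 2.4.6 were used.

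The alternatives were other scaling percentiles, quantile normalization, normexp (offset 50), the authors' values, the mean over probes, wider and narrower filters, and thresholds of 2-fold and 8-fold. No genome was used, so probes carry no coordinates.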

Additional observations from a re-analysis of the deposited data

How the results depend on the processing

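The counts past 4-fold, 108 with more and 64 with less signal in the middle zone, were recomputed under 12 other settings. Scaling gave 49 higher with the 75th percentile over all probes, 46 higher and 98 lower with the 50th percentile and with the authors' values, and 55 higher with medians set equal. Normexp gave 44 higher and quantile normalization 37 lower. The wider background filter gave 389 and 233 of 3026 genes, as more genes were tested, and the narrower filter 71 and 39 of 477. A threshold of 2-fold gave 328 and 106, and of 8-fold 41 higher. The other values of these counts stayed within 1.5 times, and the cause of the shifts between scalings was not tested. No difference past 4-fold changed sign. The scaling percentiles and the authors' values, which shift every gene by the same amount, could not have turned one. Of the single-gene values named, 770 moved by more than the spot error and 639 did not. Of the bounds, 326 moved by more than the median spot error and 4 did not. Nothing is read from the bounds, because quantile normalization, normexp and the authors' values left the background floor on the main scale. No paired analysis was possible because each group is 1 array and the result comes from no test. Leaving out an array was not possible for the same reason. Low detection limits the comparison: 8.39% and 10.8% of probes were above background, so that most genes have no value in either zone.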
